A study of Mus musculus with 3 samples.

Results

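Peaks of H3K36me3 inside the first introns of protein-coding genes were examined in regulatory T cells (Tregs) from the spleen and the large intestine (LI) of mice. A peak counted when it was under 10 kb long, when its midpoint lay in intron 1 of the longest coding transcript of a GENCODE M21 gene, and when that midpoint was outside every annotated exon and more than 1 kb from every transcript start. Of 120910 peaks in the table, 11143 had their midpoint in such an intron. Among these, 8 were 10 kb or longer, 1063 lay in an exon of some transcript, and 1362 lay outside exons within 1 kb of a start. This left 8710 peaks, 7.20% of the table, in 2248 of the 20458 coding genes with an intron. Peaks in intron 2 and beyond of the same transcripts, chosen with the same exclusions and lying in no first intron, numbered 69545 and served as the comparison.

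The samples were CD3+CD4+Foxp3-YFP+ cells sorted from C57BL/6 mice of the Foxp3-YFP genotype, in which the Foxp3 locus drives Cre and YFP. Both groups carried this allele, both were at steady state, and neither was treated. Cells of female and male mice were pooled before immunoprecipitation, so spleen and LI each gave 1 H3K36me3 library, and an input from spleen was not analysed here. There were no replicates, so differences between tissues compare 2 libraries, no test was possible, and intervals cover counting error only.

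H3K36me3 is written by SETD2, which travels with elongating RNA polymerase II, so the mark lies over the bodies of transcribed genes and is low at promoters. The first intron adjoins the promoter, is often the longest intron, and commonly holds enhancers. H3K36me3 is also read by enzymes that methylate CpG dinucleotides within gene bodies.

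The sequences shown here are from the strongest first-intron peak of 7 genes taken up again further on. Ramp3 and Hip1 were picked as higher in LI, and Bcl2, Bach2 and Evl as higher in spleen. Cd247 and Nt5e had the largest summed first-intron signal in their lists of genes fixed by role. Their peaks shown here were similar in both tissues, which was not a ground for picking them. Each sequence is the whole peak, or the central 240 bases of a longer one. All are read 5′ to 3′ on the strand of the gene from GRCm38 (mm10), with CpG dinucleotides in capitals.
Ramp3 (chr11:6673740-6673979, plus strand): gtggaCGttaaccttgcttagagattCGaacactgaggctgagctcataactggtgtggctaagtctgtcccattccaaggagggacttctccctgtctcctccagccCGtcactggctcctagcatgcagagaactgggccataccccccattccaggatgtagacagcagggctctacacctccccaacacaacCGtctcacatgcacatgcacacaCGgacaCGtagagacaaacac
Hip1 (chr5:135527570-135527769, minus strand): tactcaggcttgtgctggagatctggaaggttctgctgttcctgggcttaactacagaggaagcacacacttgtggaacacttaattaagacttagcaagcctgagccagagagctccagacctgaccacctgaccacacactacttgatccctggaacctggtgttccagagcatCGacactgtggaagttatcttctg
Bcl2 (chr1:106696498-106696698, minus strand): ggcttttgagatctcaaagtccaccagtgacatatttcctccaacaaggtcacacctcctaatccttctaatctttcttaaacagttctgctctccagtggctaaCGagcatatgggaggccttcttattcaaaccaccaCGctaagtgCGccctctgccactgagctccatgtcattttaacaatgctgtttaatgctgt
Bach2 (chr4:32291772-32291986, plus strand): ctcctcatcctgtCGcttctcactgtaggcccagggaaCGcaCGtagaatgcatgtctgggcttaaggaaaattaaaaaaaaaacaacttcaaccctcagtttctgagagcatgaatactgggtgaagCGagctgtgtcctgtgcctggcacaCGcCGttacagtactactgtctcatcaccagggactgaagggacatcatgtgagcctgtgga
Evl (chr12:108640458-108640697, plus strand): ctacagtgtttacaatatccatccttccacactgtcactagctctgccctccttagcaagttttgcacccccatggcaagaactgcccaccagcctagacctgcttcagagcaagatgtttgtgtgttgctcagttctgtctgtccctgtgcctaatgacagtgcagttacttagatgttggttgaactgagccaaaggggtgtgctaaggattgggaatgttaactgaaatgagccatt
Cd247 (chr1:165824196-165824435, plus strand): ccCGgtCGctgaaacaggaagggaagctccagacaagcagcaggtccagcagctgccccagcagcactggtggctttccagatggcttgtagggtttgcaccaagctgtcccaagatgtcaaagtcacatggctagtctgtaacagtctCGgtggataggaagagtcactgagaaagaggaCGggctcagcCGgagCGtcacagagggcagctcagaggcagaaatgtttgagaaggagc
Nt5e (chr9:88335105-88335344, plus strand): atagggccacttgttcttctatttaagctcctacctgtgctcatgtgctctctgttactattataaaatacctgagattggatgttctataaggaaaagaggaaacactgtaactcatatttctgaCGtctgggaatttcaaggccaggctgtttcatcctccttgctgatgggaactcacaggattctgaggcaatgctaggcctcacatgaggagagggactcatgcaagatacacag

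These stretches ranged from 43.8% GC in Nt5e to 56.2% GC in Cd247. The Ramp3, Bach2 and Cd247 stretches held 6 CpG dinucleotides each, whereas the Evl stretch held 0. Over all first-intron peaks the median observed-to-expected CpG ratio was 0.20, the same to 2 decimals as in later introns. The Ramp3 peak measured 5.13 RPKM (read density scaled for length and for library size) in spleen and 25.7 RPKM in LI, and the Bcl2 peak measured 17.8 RPKM in spleen and 5.18 RPKM in LI.

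First introns held fewer peaks than later introns. Over all coding genes there were 39.4 first-intron peaks per Mb in 221 Mb of eligible sequence, against 112 per Mb in 623 Mb of later introns, a ratio of 0.35. Peaks of any length covered 4.50% of first-intron bases 5 to 10 kb from the start and 25.1% of later-intron bases at the same distance. Because many coding genes had no peak, the comparison was repeated in 7365 genes that had at least 1 peak with its midpoint in an exon. Exonic peaks that reach into an intron still count toward its covered bases, so coverage is not independent of this choice. In these genes the peaks covered 5.07% of first-intron bases and 28.2% of later-intron bases. By midpoint there were 93.1 peaks under 10 kb per Mb in first introns and 312 per Mb in later introns.

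**Figure D1:**
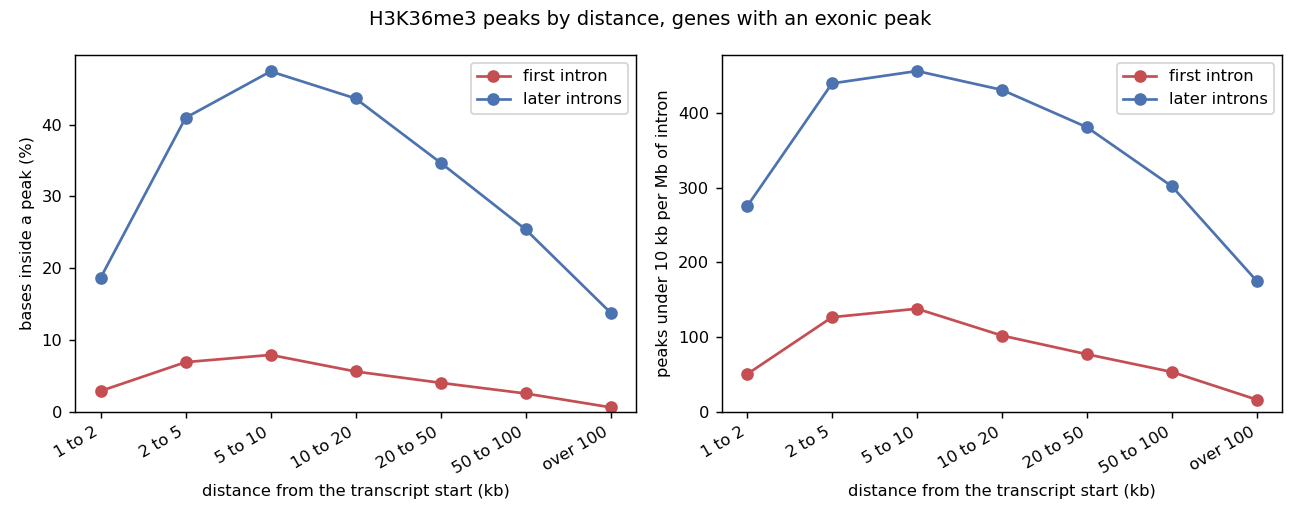
Share of eligible intron bases inside a peak (left) and peaks under 10 kb per Mb (right), by distance from the transcript start in kb, for first introns (red) and later introns (blue) of the 7365 genes with an exonic peak. The first-intron line lies below the later-intron line in all bins, at 7.91% against 47.4% between 5 and 10 kb.

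The gap was present at every distance from the start. Between 2 and 5 kb, 6.91% of first-intron bases and 41.0% of later-intron bases were in peaks in the genes with an exonic peak. Between 50 and 100 kb the values were 2.54% and 25.4%. Both classes peaked from 5 to 10 kb and were lower on either side.

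The share of bases in peaks rose with intron number. In the same genes it was 5.07% in intron 1, 16.1% in intron 2, 21.5% in intron 3, 27.0% in intron 4 and 34.8% in intron 8 and beyond. The step from intron 1 to intron 2 was the largest of these steps as a ratio.

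Within single genes the order was the same, with the bases of exonic peaks that reach into introns again counted. Of 3922 genes with an exonic peak and at least 1000 eligible bases in each class, coverage was higher in later introns in 3653, higher in the first intron in 79 and equal in 190. The first intron had no covered base in 2135 of them, against 203 for later introns. In the 1706 genes with peaks in both classes, the median coverage was 9.87% in the first intron and 68.8% in later introns.

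In the genes with an exonic peak, the set used throughout this paragraph, position inside the first intron depended on its length. With the intron divided into 10 equal segments, coverage in introns of 5 to 20 kb was 2.02% in segment 1, 7.18% in segment 5 and 17.6% in segment 10. Segment 10 adjoins the next exon, and exonic peaks that reach into the intron count as coverage. Its values are therefore not independent of the choice of genes. Over all coding genes and intron lengths, coverage was 2.41% in segment 5 and 4.16% in segment 10. In introns of 20 to 50 kb, it was 2.08%, 5.04% and 7.02% in the same segments. In introns of 50 kb and more it was 3.91% in segment 2, 2.43% in segment 5 and 2.99% in segment 10. Among these genes with an exonic peak, long first introns held a peak more often. The share was 48.8% (Wilson 95% interval over genes, 43.1 to 54.5) of 291 genes with introns of 50 kb and more. It was 22.4% (20.1 to 24.8) of 1202 genes with introns of 1 to 5 kb. These are not shares of all coding genes. The share of bases covered went the other way, at 2.67% in introns of 50 kb and more and 10.2% in introns of 1 to 5 kb. In those short introns coverage was 12.3% in segment 1, 4.07% in segment 5 and 28.2% in segment 10. Bases within 1 kb of a start were not eligible, which removes much of segment 1 in introns this short, so its value rests on the remaining bases.

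**Figure D2:**
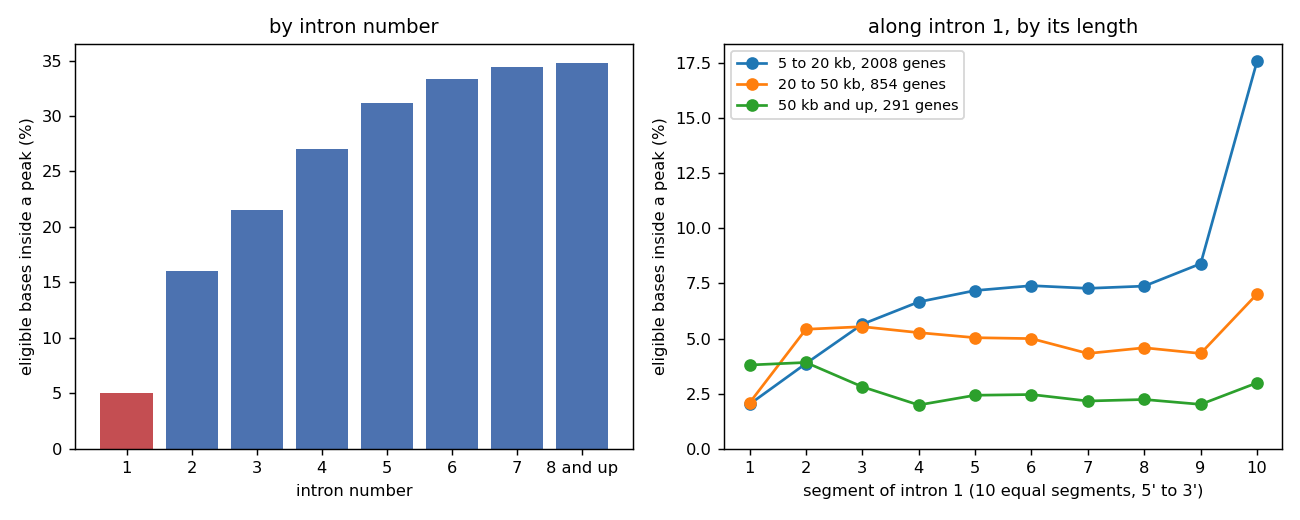
Share of eligible bases inside a peak by intron number (left, intron 1 in red) and by segment of intron 1 (10 equal segments from 5′ to 3′) for 3 classes of intron length (right), in genes with an exonic peak. Coverage climbs from 5.07% in intron 1 to 34.8% in intron 8 and beyond, and introns of 5 to 20 kb end at 17.6% in segment 10.

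The midpoints lay a median of 10390 bp from the start of their transcript, with an interquartile range of 5207 to 23680 bp. The nearest, in Tspan2 (a tetraspanin), was 1028 bp away and measured 2.52 RPKM in spleen and 9.56 RPKM in LI. It also lay in a later intron of another Tspan2 transcript. Leaving out the read-through model Gm20388 described next, the farthest, in the single-peak model Gm37388, was 664049 bp away with 6.63 RPKM in spleen and 10.2 RPKM in LI. The strongest peak of 1 kb or more lay in the longest model of Epo, at chr5:137518222-137525923, with 35.1 RPKM in spleen and 42.4 RPKM in LI. That peak also lay in a later intron of another gene.

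Overlapping gene models were common. Of the 8710 peaks, 1293 also lay in a later intron of another coding transcript of the same gene and 718 in a later intron of another gene, together 1970 peaks or 22.6%. One read-through model, Gm20388 on chromosome 8, has a first intron of 4384418 bp and held 259 of the peaks, 239 of them in later introns of other genes. Without it 8451 peaks remained, and their median distance from the start was 9958 bp.

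First-intron peaks were shorter and slightly weaker than later-intron peaks. Their median length was 342 bp against 457 bp. In spleen the median was 9.40 RPKM (interquartile range 6.88 to 11.8) against 10.3 RPKM in later introns, a ratio of 0.92. In LI, with the column scaled by 0.969 to the spleen total, it was 9.24 RPKM against 9.98 RPKM, a ratio of 0.93. In later introns the interquartile range was 7.91 to 12.8 RPKM in spleen, so the classes overlapped for most of their range. The gap was smaller among peaks of like length, taken without Gm20388 and reaching 10 RPKM over both libraries. The spleen medians were 8.40 RPKM in first and 8.44 RPKM in later introns at 200 to 250 bp. At 1 kb and more they were 12.8 RPKM and 13.5 RPKM. In LI the first-intron median was lower in each length class except 250 to 400 bp.

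Neither tissue was higher over the members as a whole. The median log2 ratio of LI over spleen, computed with 0.5 RPKM added to both values in the 8570 peaks that reached 10 RPKM over both libraries, was -0.03, against -0.04 in later introns and -0.01 over all peaks. Among these 8570 peaks, 1134 (13.2%) were over 2-fold higher in LI and 1254 (14.6%) over 2-fold higher in spleen. Over all 119724 peaks that reached that level, 8.81% were over 2-fold higher in LI and 9.18% over 2-fold higher in spleen.

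The spread between the libraries fell with peak length in both classes and was wider in first introns within each of 4 length classes. Leaving out Gm20388, the SD of the log2 ratio was 1.18 against 1.09 in later introns at 200 to 250 bp and 0.49 against 0.40 at 1 kb and more. First-intron peaks of 1 kb and more were over 2-fold higher in LI in 3.12% and in spleen in 2.34%, against 1.91% and 0.93% in later introns. For peaks of 200 to 250 bp the shares were 17.9% and 24.5%, against 16.5% and 20.5%, and for 400 to 1000 bp they were 9.32% and 8.65%, against 5.36% and 5.64%. Across the 8710 first-intron peaks the log2 values of the 2 libraries had r = -0.05, against 0.43 over the 847 of 1 kb or more. These peaks were called in one or both of the libraries compared, which was not separated here.

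GC content also moved with the ratio. First-intron peaks had a median GC of 48.5%, against 45.7% in later introns. In the lowest decile of GC over all peaks, the median log2 ratio was -0.63 in first introns and -0.40 in later introns, and in the highest decile it was 0.28 and 0.27. With the trend over GC subtracted, the first-intron median was -0.09. With the same subtraction the summed first-intron ratio was 1.86 in Epas1 and -1.63 in Bcl2, beside 2.03 and -1.57 without it. Of the genes named by rule, Nfatc2 turned sign, from 0.14 to -0.04. Values nearer 0 shifted by a larger share, with Mbnl1 going from -0.44 to -0.24, Gm20388 from 0.20 to 0.05, Kdm4b from 0.53 to 0.26, Rara from 0.43 to 0.23 and Ppard from 0.30 to 0.08.

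**Figure D3:**
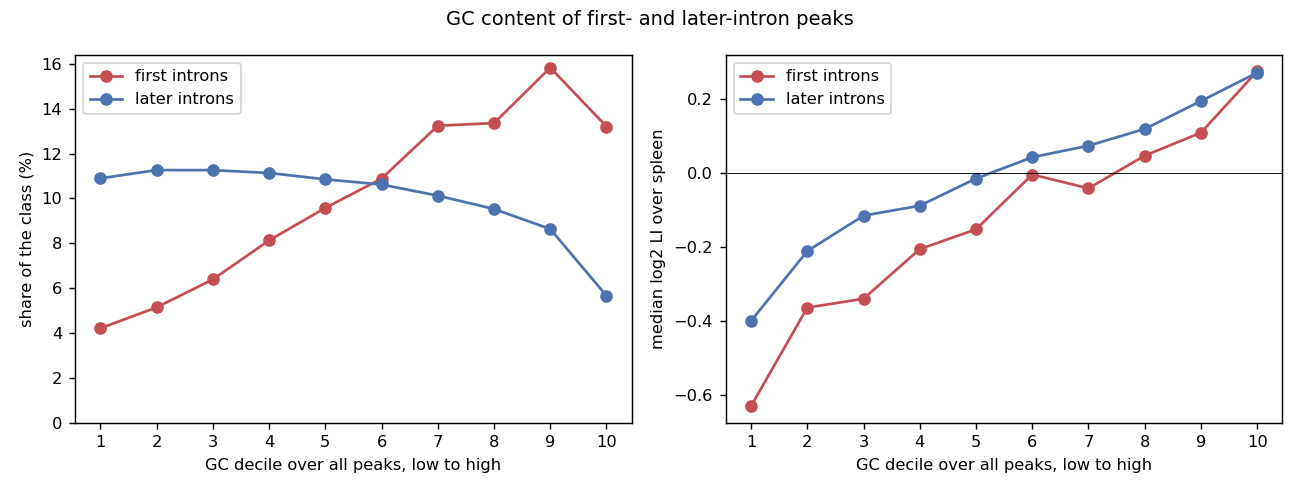
Share of first-intron (red) and later-intron (blue) peaks in each decile of GC content over all peaks (left) and their median log2 LI over spleen (right). First-intron peaks fill the higher deciles more, and both lines rise from below -0.39 to above 0.27 from the lowest to the highest decile.

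Summed over the first-intron peaks of each gene, 226 of 2222 genes (10.2%) were over 2-fold higher in LI and 261 (11.7%) over 2-fold higher in spleen. Sums over all peaks in the body of each coding gene gave 4.64% and 2.96% of 9866 genes. Most of the first-intron sums rested on few peaks, with a median of 2 per gene and 953 genes with 1 peak. In the 660 genes with 4 or more peaks, 38 were over 2-fold higher in LI and 22 over 2-fold higher in spleen.

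The genes with the most peaks, after Gm20388, were Mbnl1, Fam196b, Ccnd3 and Cmip. Mbnl1, a splicing regulator, held 81 peaks that summed to 774 RPKM in spleen and 587 RPKM in LI, and all 81 lay in a later intron of another Mbnl1 transcript. All 70 peaks of Fam196b also lay in later introns of other models. Ccnd3, which encodes the cell cycle regulator cyclin D3, held 59 peaks with 744 RPKM in spleen and 385 RPKM in LI. In Ccnd3, 58 of the 59 peaks were higher in spleen. Cmip held 54 peaks with 443 RPKM in spleen and 675 RPKM in LI, and 43 of them were higher in LI.

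The rule named 6 genes for being higher in LI, so the direction of their sums was fixed by the choice. The counts of their peaks come from the same 2 libraries and are no separate support. Epas1, the hypoxia-inducible factor HIF-2α, had 20 peaks over its 42807-bp first intron that summed to 53.6 RPKM in spleen and 227 RPKM in LI, a log2 ratio of 2.03 (counting interval 1.58 to 2.48). All 20 were higher in LI. Ramp3, a receptor activity-modifying protein, had 46.3 RPKM in spleen and 190 RPKM in LI over 12 peaks, and Hip1, an endocytic adaptor, had 32.5 RPKM and 137 RPKM over 12 peaks. Every one of those peaks was higher in LI. Nfil3, a basic leucine zipper transcription factor, had 15.2 RPKM and 68.1 RPKM over 6 peaks. Plec, the cytolinker plectin, had 10.9 RPKM and 58.1 RPKM over 5 peaks that also lay in later introns of other Plec transcripts. Cass4, an adhesion scaffold, had 40.9 RPKM and 138 RPKM over 12 peaks.

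The 6 genes at the other end were named by the same rule for being higher in spleen, with the same limit. Bcl2, the inhibitor of apoptosis, had 32 peaks with 354 RPKM in spleen and 122 RPKM in LI, a log2 ratio of -1.57 (counting interval -1.89 to -1.26), and 31 of the 32 were higher in spleen. Bach2, a transcriptional repressor of lymphocyte differentiation, had 81.7 RPKM and 27.5 RPKM over 8 peaks. Aff3, of the AF4 family, had 58.7 RPKM and 20.4 RPKM over 5 peaks. Evl, an actin regulator, had 117 RPKM and 47.2 RPKM over 9 peaks, all in later introns of other Evl transcripts. St6gal1, a sialyltransferase, had 250.4 RPKM and 112 RPKM over 20 peaks, all higher in spleen. Ripor2 had 425 RPKM and 205 RPKM over 35 peaks.

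**Figure D4:**
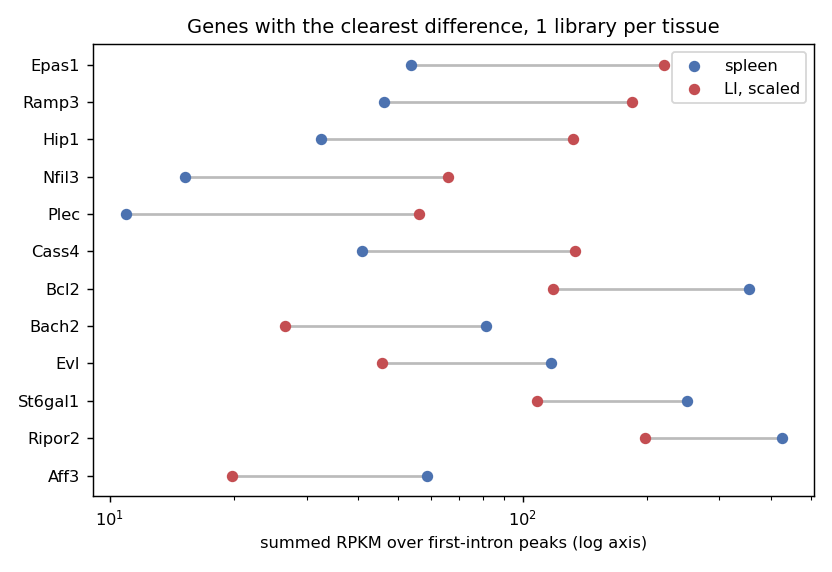
Summed RPKM over the first-intron peaks of the 12 genes with the clearest differences, on a log axis, for spleen (blue) and LI scaled to the spleen total (red), 1 library each. The upper 6 genes are higher in LI, led by Epas1, and the lower 6 higher in spleen, led by Bcl2.

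Genes fixed by role moved in both directions. Of 30 Treg lineage and effector genes, 14 had a first-intron peak, with a median log2 ratio of 0.32, against -0.04 over all 2222 genes. The binomial 95% interval of that median over genes, -0.50 to 0.85, included both. Tigit was over 2-fold higher in LI and Batf in spleen, each on 1 peak with a counting interval that included 0. Within that list Icos, a costimulatory receptor, had 61.3 RPKM in spleen and 117 RPKM in LI, with all 9 peaks higher in LI. Maf, a transcription factor of effector Tregs, had 41.2 RPKM and 76.1 RPKM over 6 peaks. Ccr9, a gut-homing chemokine receptor, had 55.2 RPKM and 103 RPKM, although 7 of its 10 peaks lay in later introns of other models. Il2ra, the high-affinity IL-2 receptor chain, was similar at 118 RPKM and 114 RPKM, and Nt5e, the ectoenzyme CD73, had 172 RPKM and 211 RPKM.

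Among 28 T cell transcription factors, 15 could be compared, with a median of -0.45 (interval -1.10 to 0.12), with 4 (Bach2, Aff3, Foxp1 and Ikzf1) over 2-fold higher in spleen and 0 over 2-fold higher in LI, where 11.7% and 10.2% of all 2222 genes were. Foxp1 rested on 2 peaks and Ikzf1 on 1, whose counting interval included 0. Stat3, the signal transducer of IL-6 family cytokines, went the other way with 105 RPKM in spleen and 193 RPKM in LI, higher in LI in 14 of 14 peaks. Foxo1, which maintains naive T cell genes, had 39 peaks with 361 RPKM and 328 RPKM. Stat5b and Ets1 had 256 RPKM and 180 RPKM in spleen and 319 RPKM and 167 RPKM in LI. For Nfkb1 the sums were 133 RPKM and 149 RPKM.

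Of 30 genes of T cell receptor and costimulation signalling, 21 had a first-intron peak, with a median of -0.16 (interval -0.58 to 0.14), and 1, Cd3d, was over 2-fold higher in spleen on a single peak whose counting interval included 0. Prkcq, the kinase PKC-θ, had 360 RPKM in spleen and 196 RPKM in LI, with 31 of 32 peaks higher in spleen. Pik3cd, a lipid kinase subunit, had 223 RPKM and 154 RPKM, and all 17 of its peaks lay in later introns of another transcript. Cd247, the CD3ζ chain, had 417 RPKM and 367 RPKM over 37 peaks. Nfatc2 had 167 RPKM and 190 RPKM.

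Of 16 environment sensors, 6 had a first-intron peak and all 6 had a higher value in LI, 2 of them over 2-fold, against 10.2% of all genes over 2-fold higher in LI. Beside Epas1 this was Nr1d1, a heme-binding nuclear receptor, with 1 peak of 4.85 RPKM in spleen and 16.2 RPKM in LI. For Rara, Arnt, Ppard and Nr1d2 the counting interval of the ratio included 0. Of 11 writers and erasers of H3K36 methylation, 2 had such a peak. Nsd3 had 63.6 RPKM in spleen and 47.9 RPKM in LI, and Kdm4b had 26.1 RPKM and 39.2 RPKM.

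Gene lists that the study took from Treg transcriptomes of another dataset were set beside the first introns. Of the 505 colonic signature genes 109 could be compared, with a median log2 ratio of 0.78, and 44 were over 2-fold higher in LI and 7 over 2-fold higher in spleen, against 10.2% and 11.7% of all 2222 genes. Of the 494 splenic signature genes 118 could be compared, with a median of -0.57, and 30 were over 2-fold higher in spleen and 3 (Fyco1, Pxmp4 and Zfp709) over 2-fold higher in LI. In the 83 colonic genes that also had later-intron peaks the medians were 0.83 in first introns and 0.53 in later introns, and in the 96 splenic genes -0.58 and -0.35.

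How closely first and later introns of a gene moved together between the tissues depended on how many peaks the sums held. Over all 1756 genes with at least 1 peak in each class, the log2 ratios had r = 0.43, 1173 had the same sign and 327 differed by over 2-fold. Of the 188 first introns over 2-fold higher in LI, 33 had later introns over 2-fold higher in LI, and for spleen it was 15 of 220. Later-intron ratios spread less, with an SD of 0.44 against 0.85 in first introns, so fewer could pass 2-fold. The share of later-intron sums past 2-fold over all 1756 genes was not counted. For sums over all peaks in a gene body it was 4.64% in LI and 2.96% in spleen. Over the 371 genes with at least 4 peaks in each class, the log2 ratios had r = 0.82 as a description across genes that share both libraries, and 288 had the same sign. Over the 138 genes with at least 8 peaks in each class, r was 0.93. In Epas1 the ratio was 2.03 in the first intron and 2.32 in later introns, in Bach2 -1.60 and -1.58, and in Cmip 0.56 and 0.41.

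**Figure D5:**
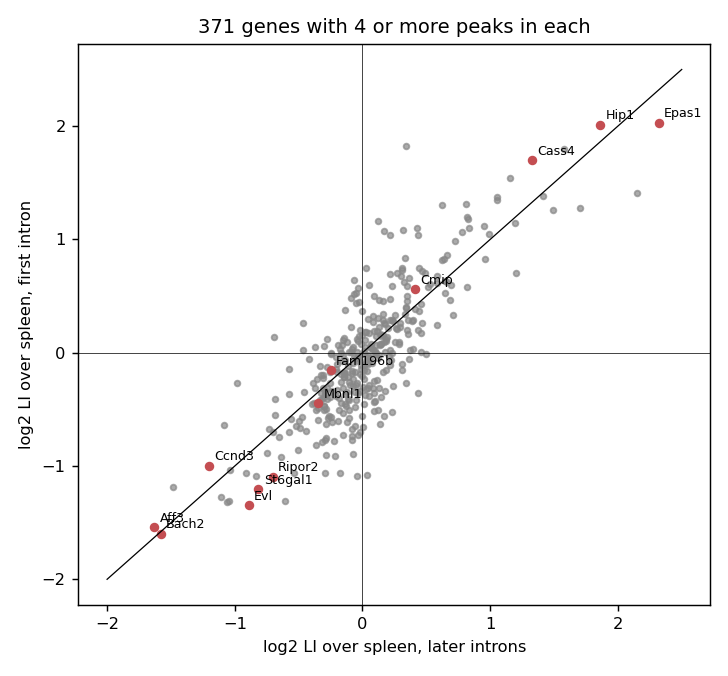
Log2 LI over spleen in the first intron against that in later introns for 371 genes with 4 or more peaks in each (1 point per gene, line of equality drawn, named genes in red). Most points follow the line, with Epas1 and Hip1 at the upper end and Bach2 and Aff3 at the lower.

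In 42 of the 371 genes the counting interval of the difference between the classes left out 0, with the first intron higher in LI relative to later introns in 18 and lower in 24. With 95% intervals, some of 371 genes would leave out 0 through counting error alone. Several bounds lay next to 0, such as 0.0007 in Bicra and 0.001 in Cflar. The genes named here were chosen after their values were seen. E2f3, a cell cycle transcription factor, had a log2 ratio of 1.82 over 5 first-intron peaks and 0.34 over 7 later peaks. Arhgap17 had -1.08 over 4 and 0.03 over 19.

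The label of the cells was checked on whole gene bodies. All 6 Treg markers (Foxp3, Il2ra, Ctla4, Ikzf2, Cd3e and Cd4) had peaks, 157 in all, with 1772 RPKM in spleen and 1453 RPKM in LI. Ikzf2 alone held 115 of these peaks, with 1205 RPKM in spleen and 851 RPKM in LI. Cd3e was also higher in spleen, at 51.8 RPKM against 40.1 RPKM in LI, and Il2ra was similar at 247 RPKM and 242 RPKM. Foxp3 had 133 RPKM in spleen and 156 RPKM in LI, Ctla4 61.1 RPKM and 80.7 RPKM, and Cd4 73.9 RPKM and 83.2 RPKM. Of 6 intestinal epithelium markers 2 had peaks, summing to 29.9 RPKM in spleen and 59.8 RPKM in LI, with Cdh1, Krt8, Krt20 and Muc2 at 0. Both were higher in LI, with Epcam at 25.3 RPKM in spleen and 47.2 RPKM in LI and Vil1 at 4.63 RPKM and 12.6 RPKM. Of 5 B cell markers 2 had peaks, summing to 51.3 RPKM in spleen and 39.7 RPKM in LI, with Ms4a1 and Ebf1 among those at 0. Cd79a had 47.2 RPKM in spleen and 29.8 RPKM in LI, whereas Pax5 had 4.05 RPKM and 9.91 RPKM. Of 5 myeloid markers 2 had peaks, summing to 29.7 RPKM in spleen and 31.3 RPKM in LI, with Lyz2, Itgam and Adgre1 at 0. In first introns the epithelial and myeloid markers had 0 peaks and the B cell markers 1, in Cd79a.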

How the data were processed

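H3K36me3 ChIP-seq was analysed in 1 spleen and 1 LI library. Per the study's methods, the authors aligned reads to mm10, called MACS2 peaks in each tissue against splenic input, merged them with bedtools and averaged bamCoverage tracks over each merged peak. The submitters' processing notes also name FastQC and Bowtie2, without versions. The deposited values are RPKM although the table is named raw counts, so no count test was used. Coverage was taken as reads counted in each 20-bp bin, a read spanning several bins being counted in each. Where a peak began and ended on a 20-bp boundary, its summed value was a whole number of such counts in 100% of cases (tolerance 0.05). This puts the depth near 29600000 reads in spleen and 38100000 in LI.

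Peaks were placed on GENCODE M21 with Python 3.11.15 and pandas 2.3.3. Log2 ratios used a pseudocount of 0.5 RPKM, peaks or sums reaching 10 RPKM, and LI scaled to the spleen total. Counting intervals took each read to cover 200 bp. The depth estimate, log2 ratios and counting intervals were tried on simulated reads drawn under the same counting assumptions. Class assignment, density, coverage and GC steps were not simulated.

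The named genes were the 5 with most peaks, the 6 in each direction, out of genes with 4 or more peaks, whose counting interval stayed farthest from 0, up to 5 per role list by summed signal, and the strongest, nearest and farthest peaks. A gene and a sequence that these rules would name are not reported here. The members and lists were chosen with earlier results of these data known. Alternatives changed the transcript, distance, length, scaling, pseudocount, filter and GC correction.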

Additional observations from a re-analysis of the deposited data

How the results depend on the processing

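Of 118 recomputed values, 85 stayed close to the reported one, 32 moved and 1 reversed. The margin for counts was wide. With a pseudocount of 2 RPKM, 809 first-intron peaks were over 2-fold higher in LI and 879 in spleen, against 1134 and 1254. The genes were 173 and 208, against 226 and 261, and all of these counted as close. The reversal was the median log2 ratio of first-intron peaks, 0.014 in peaks of 1 kb or more; it was -0.092 with the GC correction and -0.062 in genes with an exonic peak. The difference of that median from later introns became -0.091 with the GC correction, -0.030 in genes with peaks in both classes and -0.024 in genes with an exonic peak.

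The density ratio of first over later introns was below 1 in all alternatives, at 0.31 without peaks in later introns of other coding transcripts, 0.15 for peaks of 1 kb or more, 0.30 at 2 to 20 kb, 0.54 in genes with peaks in both classes and 0.30 in genes with an exonic peak. The spleen signal ratio was 0.93 over 5 kb from a start, 0.90 without such shared peaks, 0.96 for peaks of 1 kb or more, 0.88 at 2 to 20 kb, 0.87 in genes with peaks in both classes, 0.83 as a mean weighted by length and 0.90 in genes with an exonic peak. The LI ratio was 0.96 for peaks of 1 kb or more, 0.90 at 2 to 20 kb, 0.86 in genes with peaks in both classes, 0.83 weighted by length and 0.90 in genes with an exonic peak.

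Over 5 kb from any start, 4804 peaks remained, 640 over 2-fold higher in LI and 700 in spleen, with 120 and 129 genes. Of peaks of 1 kb or more there were 847, 24 and 18 of them past 2-fold, with 13 and 7 genes. For the first alternative fewer peaks enter, and among peaks of 1 kb or more the share past 2-fold was also lower, and the cause was not tested. The alternatives without Gm20388 and in genes with an exonic peak were chosen after seeing the data. With 1 library per tissue, biological variation cannot be assessed, and the smaller peaks rest on few reads.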
